A study of Saccharina japonica with 9 samples.

Results

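Cytosines that were listed as methylated in several gametophyte libraries of the kelp *Saccharina japonica* were examined by whole-genome bisulfite sequencing (WGBS). A recurring site was a nuclear cytosine, defined by scaffold, position and strand, that was listed in at least 4 of the 6 gametophyte libraries and covered by at most 30 reads in every library that listed it. Of 27644146 nuclear positions listed in at least 1 gametophyte library, 24100 were listed in at least 4. The coverage maximum left out 16621 of these, and 7479 recurring sites remained. The sites were thus chosen by their listing and their coverage in the gametophyte libraries, and both are described here without a test.

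All 9 libraries were of strain Ye-c12, with 3 replicates for each of 3 life-cycle stages. Female gametophytes (FG) and male gametophytes (MG) were haploid, 2 months old, grown from the blade of a sporophyte of the same strain and multiplied by gametophyte cloning. Sporophytes (SP) were diploid, 4 months old, came from crossing FG with MG, and were sampled as the entire body. Each sex was therefore multiplied clonally, and the spread between replicates is that between libraries of such material.

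Bisulfite turns unmethylated cytosine into uracil, which is read as thymine, while methylated cytosine is still read as cytosine. In land plants, methylation in the symmetric CpG and CHG contexts (H is any base but G) is copied to the new strand after replication from the methylated partner cytosine on the old strand. CHH has no such partner and is methylated anew. Kelps alternate between a small free-living haploid gametophyte and a large diploid sporophyte.

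The methylation level of a site (MLmc) is the share of its reads that are methylated. Each library's list held cytosines with at least 5 reads and at least 1 methylated read, so a site missing from a list may be unmethylated or too thinly covered. The gametophyte libraries listed between 3443506 and 6255023 nuclear positions at a median coverage of 7 to 9 reads, and the SP libraries listed between 684742 and 1702060. In every library more than 96% of listed positions had exactly 1 methylated read. FG replicate 3 and MG replicate 3 had the longest list of their sex and a median coverage of 9 reads.

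Few positions recurred. Among positions covered by at most 30 reads, 24924779 were listed in exactly 1 gametophyte library, 2067325 in 2, 127165 in 3, 6979 in 4, 439 in 5 and 61 in all 6. The recurring sites lay on 2484 of the 9560 scaffolds that held any listed gametophyte position, with 3698 on the plus strand and 3781 on the minus strand. Of these scaffolds, 1025 held 1 recurring site, 1369 held 2 to 9 and 90 held 10 or more. At the edge of the coverage rule, the 176 recurring sites whose deepest library had 30 reads had a median level of 0.0496. The 188 positions that were left out with a deepest library of 31 reads had 0.0484. At the edge of the library rule, the median level was 0.114 over positions listed in 3 libraries and 0.111 over those listed in 4.

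**Figure D1:**
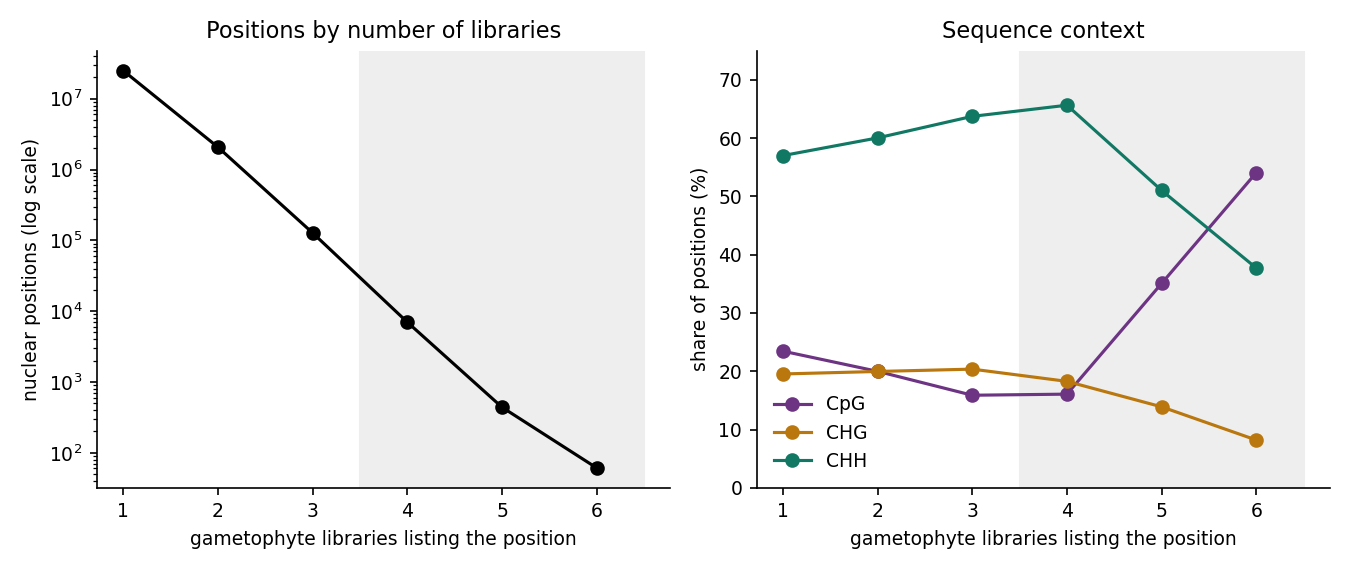
Left, the number of nuclear positions (log axis) against the number of gametophyte libraries that list them, with at most 30 reads in each. Right, the percentage of those positions in the CpG, CHG and CHH contexts. The shaded part marks the recurring sites, from 6979 positions in 4 libraries to 61 in all 6, where the CpG share reaches 54.1%.

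The sequence context changed with the number of libraries. CHH made up 57.0% of positions listed in 1 library, 65.7% of those listed in 4 and 37.7% of those listed in 6. CpG made up 23.5%, 16.1% and 54.1% at the same steps, so that 33 of the 61 positions listed in all 6 libraries were CpG, 23 were CHH and 5 were CHG. Over all recurring sites, 1309 were CpG (17.5%), 1341 were CHG (17.9%) and 4829 were CHH (64.6%). These shares moved with the coverage rule: with no coverage maximum CpG was 6.38% of the sites, and with a maximum of 20 reads it was 22.7%.

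The recurring sites fell into a large group with low levels and a small group that was almost completely methylated. The mean level over the listing libraries was below 0.2 at 6682 sites, from 0.2 to 0.5 at 337, from 0.5 to 0.9 at 63 and at least 0.9 at 397. All but 9 of the 460 sites at 0.5 or above lay on 7 scaffolds, numbered 2915, 4809, 5821, 9758, 11131, 11485 and 14100. These scaffolds, each with at least 10 recurring sites at a level of 0.5 or above, were singled out after the levels had been seen and are called the high-level scaffolds. They held 452 recurring sites with a median level of 0.958. The other 7027 sites had a median level of 0.109, with 5% of them below 0.0484 and 5% above 0.199.

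**Figure D2:**
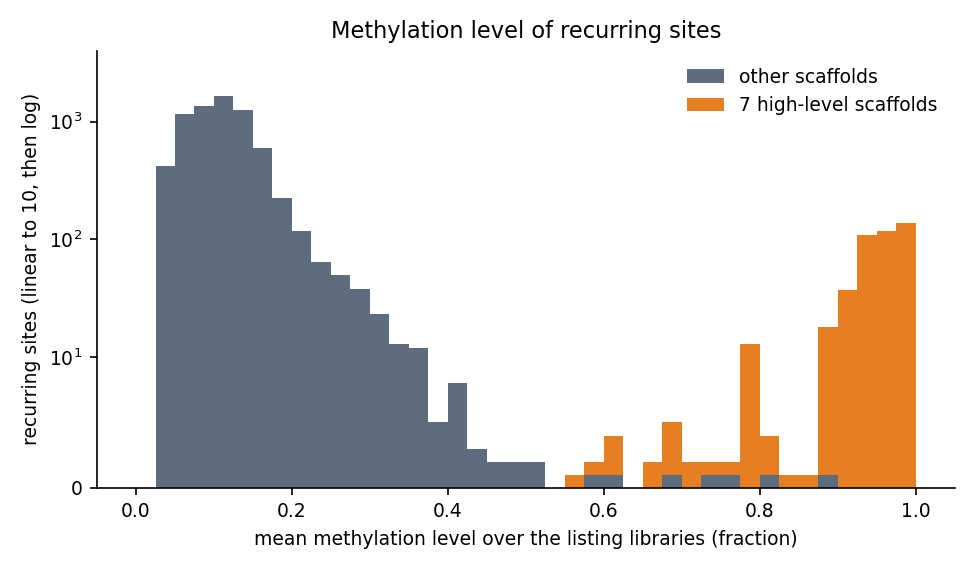
The number of recurring sites (linear to 10, then log) by mean methylation level over the libraries that list the site, in bins of equal width. The sites on the 7 high-level scaffolds sit near complete methylation, with a median of 0.958, and the sites on other scaffolds at low levels, with a median of 0.109.

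On the high-level scaffolds methylation covered neighbouring cytosines of every context. Of the 452 sites, 86 were CpG, 73 were CHG and 293 were CHH. A run was defined as recurring sites of 1 scaffold and strand with gaps of at most 50 bases, and 449 of the 452 sites lay in 17 runs. The longest was on the minus strand of scaffold 9758 from position 480 to 819, with 60 sites of which 44 were CHH, and a mean level of 0.942. The next was on the plus strand of scaffold 4809 from 9425 to 9646, with 59 sites at 0.978. Scaffold 14100 followed with 58 sites on its minus strand from 53 to 512 at 0.952, and with 43 on its plus strand from 64 to 237 at 0.948. The fifth run held 36 sites on the minus strand of scaffold 9758 from 225 to 406, at 0.966. The partner cytosine on the other strand was listed in at least 1 gametophyte library for all 86 CpG and all 73 CHG sites of these scaffolds.

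The 7 scaffolds were not listed alike in all libraries. Scaffold 9758 listed 384 positions at 0.5 or above in FG replicate 1, 301 in FG replicate 2, 254 in MG replicate 1, 155 in MG replicate 2 and 396 in SP replicate 1. It had none in FG replicate 3, MG replicate 3, SP replicate 2 or SP replicate 3, and no listed position of any level there. Scaffolds 5821, 11131 and 14100 showed the same division of the libraries. On scaffold 14100 the counts were 215 and 162 in FG replicates 1 and 2, 170 and 166 in MG replicates 1 and 2, and 214 in SP replicate 1. Scaffold 11485 differed in that FG replicate 3 also listed 49 positions, all fully methylated. In FG replicate 1 only 9 of its 43 listed positions were at 0.5 or above. The division ran across both sexes and both generations, and it does not follow a group of the design. Whether the 4 libraries without listed positions had reads on these scaffolds was not tested, since the lists leave out cytosines not called methylated.

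**Figure D3:**
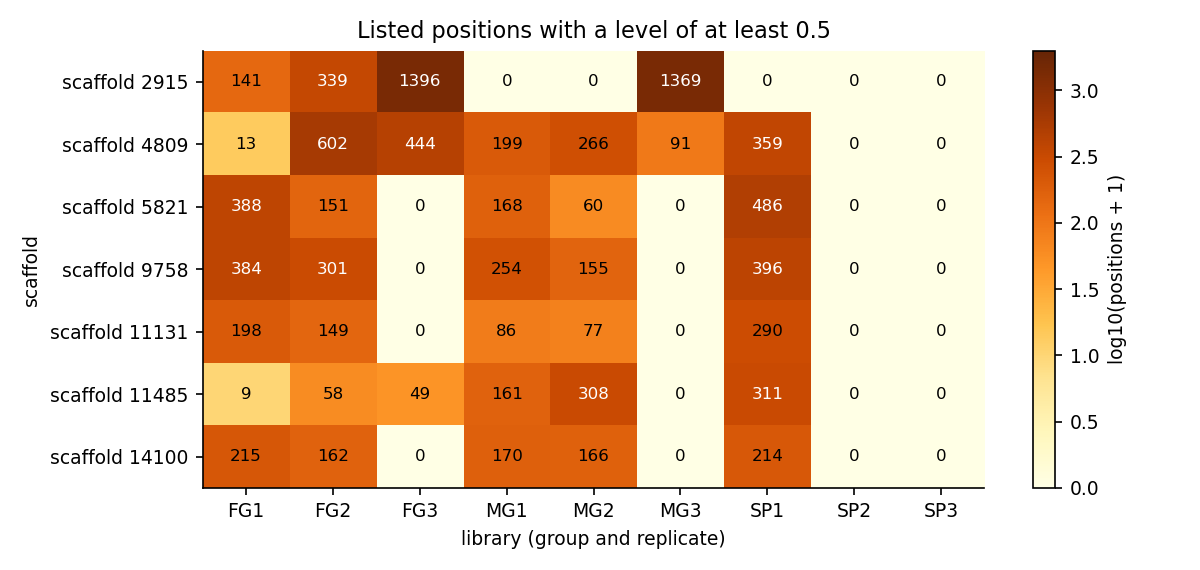
Number of listed positions with a level of at least 0.5 on each high-level scaffold (rows) in each library (columns), with colour on a log10 scale of the count plus 1. Scaffolds 5821, 9758, 11131 and 14100 hold such positions in FG and MG replicates 1 and 2 and SP replicate 1, and none in the other 4 libraries, while scaffold 2915 has 1396 in FG replicate 3 and 1369 in MG replicate 3.

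Scaffold 2915 had another pattern. It listed 141, 339 and 1396 positions at 0.5 or above in the 3 FG libraries, none in MG replicates 1 and 2, 1369 in MG replicate 3 and none in any SP library. Its 48 recurring sites all lay on the minus strand between 12335 and 16803 and all came from the 3 FG libraries together with MG replicate 3. Scaffold 4809 had such positions in all 6 gametophyte libraries, from 13 in FG replicate 1 to 602 in FG replicate 2, and 359 in SP replicate 1. The remaining listed positions of scaffolds 2915 and 4809 were covered far more deeply, at a median of 845.5 and 654 reads in FG replicate 1. The highly methylated positions there had a mean of 6.24 and 5.15 reads in the same library and of 40.2 and 24.4 reads in FG replicate 3. Its part in the levels was not tested.

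Sites off the high-level scaffolds stood alone as a rule. Of these 7027 sites, 6746 lay in no run, and 281 lay in 128 runs of which the longest had 4 sites. At 5112 of them (72.7%) every listing library had exactly 1 methylated read, so that the level there was the reciprocal of the coverage. The median level was 0.141 for the 1223 CpG sites, 0.0988 for the 1268 CHG sites and 0.102 for the 4536 CHH sites. The partner cytosine was listed in at least 1 gametophyte library for 10.4% of the CpG sites and 19.9% of the CHG sites. The same shares were 12.7% and 14.4% for positions listed in exactly 1 library. No partner of a CpG or CHG site was itself a recurring site off the high-level scaffolds. For positions listed in exactly 1 library that share was 0.00210% for CpG and 0.00503% for CHG. With shares this low, the absence of such partners among these sites does not show that methylation was on 1 strand only.

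Scaffold 23 held the most recurring sites among these scaffolds, 35 in 858725 bases up to its last listed position, with a median level of 0.0992. Scaffolds 11, 16 and 31 followed with 24, 23 and 22 sites. Scaffold 11485, a high-level scaffold with 26 sites, lies between them in this order. Per kb, scaffolds 4809 and 2915 led with 7.58 and 1.66 sites, among scaffolds with at least 10 sites and a last listed position of at least 10000. Scaffold 3096 followed with 0.457 per kb (11 sites, median level 0.0451), scaffold 2549 with 0.316 (13 sites, 0.0826) and scaffold 2197 with 0.244 (17 sites, 0.0541).

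A few short stretches collected CHH sites. In adjacent windows of 500 bases, a count made after the sites had been seen, 6488 of 6706 windows with a recurring site off the high-level scaffolds held 1 site, and 15 held at least 5. These 15 windows held 91 sites, of which 85 were CHH (93.4%), 2 were CHG and 4 were CpG. Both strands carried sites in 14 of the 15. The densest lay on scaffold 173 between 476029 and 476176, with 11 CHH sites of which 4 were on the plus and 7 on the minus strand. Their mean levels ran from 0.0838 to 0.245. All 11 were listed in MG replicate 1, 10 in FG replicate 1, 9 in FG replicate 2, 9 in MG replicate 3, 6 in FG replicate 3 and 5 in MG replicate 2. SP listed 1 of the 11, at position 476050 in SP replicate 1. Windows on scaffolds 2549 and 609 held 8 and 7 sites, and the window before the one on scaffold 2549 held another 5. Of the 91 sites in the 15 windows, 6 were listed in SP. Off the high-level scaffolds, at least 1 SP library listed 7.26% of all recurring sites and 3.17% of the CHH sites.

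Off the high-level scaffolds, 9 sites had a mean level of 0.5 or above, and they were looked at after their levels had been seen. The highest was a CHH site on scaffold 188 at position 154894 on the plus strand, with a mean level of 0.875. It was methylated in 11 of 11 reads in FG replicate 1, 8 of 8 in MG replicate 1, 9 of 9 in MG replicate 2 and 3 of 6 in MG replicate 3. A CHH site on scaffold 6176 at position 3947 followed at 0.802 and was also listed in SP replicate 1, with 5 of 6 reads. Of the 9 sites, 5 were CHH, 2 CHG and 2 CpG.

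The question of sex was asked at the level of libraries first. Recurring sites listed in each library numbered 5076, 4587 and 5182 for the FG libraries and 5259, 5231 and 5142 for the MG libraries, a mean of 4948 ± 317 (SD, n = 3) and 5211 ± 61.1 (SD, n = 3). The ranges overlapped. Relative to the length of each list the order turned, with a mean of 11.2 ± 2.20 recurring sites per 10000 listed nuclear positions in FG and 9.53 ± 1.16 in MG (SD, n = 3 each). The mean level was 0.181, 0.208 and 0.129 for the FG libraries and 0.185, 0.181 and 0.104 for the MG libraries, and here too the ranges overlapped. Off the high-level scaffolds it was 0.126, 0.125 and 0.102 for the FG libraries and 0.124, 0.119 and 0.0958 for the MG libraries. In both sexes replicate 3 was the lowest and the most deeply covered, with a median of 12 reads in FG and 13 in MG against 9 or 10 in the other 4 libraries. A comparison of 3 libraries with 3 allows no p below 0.1 in an exact permutation test.

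**Figure D4:**
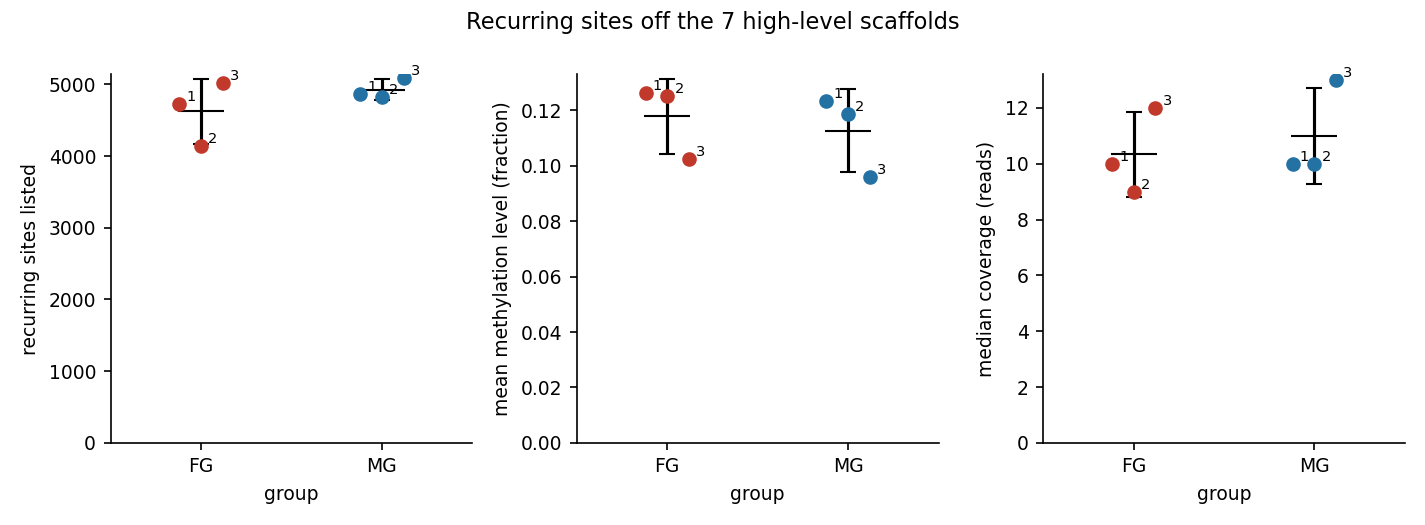
Recurring sites off the high-level scaffolds in each gametophyte library (points, numbered by replicate), with the group mean and SD (n = 3 each): the number of sites listed, their mean methylation level, and their median coverage in reads. FG and MG overlap in all 3 measures, and replicate 3 of each sex has the lowest level and the highest coverage.

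The rule itself asks for at least 1 library of each sex, and 9 of the 15 possible sets of 4 libraries (60%) hold 2 of each. Of the 6979 sites listed in 4 libraries, 60.8% were listed in 2 FG and 2 MG libraries. Of all 7479, 4246 were listed in 2 FG and 2 MG libraries, 1187 in 3 FG and 1 MG library and 1546 in 1 FG and 3 MG libraries. A further 185 were listed in 3 FG and 2 MG libraries and 254 in 2 FG and 3 MG libraries. Off the high-level scaffolds the sites with all 3 libraries of 1 sex and 1 of the other numbered 1129 for FG and 1546 for MG. The MG lists were also longer on average than the FG lists, and the part of list length in this difference was not tested.

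The levels of MG and FG were compared at single positions with Fisher's exact test on the reads summed over the 3 libraries of each sex, for all 1303 nuclear positions that were listed in all 6 libraries at any coverage. A position was called at a Benjamini-Hochberg adjusted p below 0.05 and a fold change of the mean level above 2. Of the 1303, 0 were called higher in MG (0%) and 0 higher in FG (0%), and so 0 of the 61 recurring sites tested were called in either direction. Each position tested had at least 1 methylated read in all 6 libraries. A position methylated in 1 sex only was thus left out beforehand, and the test cannot speak to such positions. At an unadjusted p below 0.05 there were 25 positions, none of them a recurring site. Pooled reads leave the spread between libraries out of Fisher's test. The methylation model of edgeR, which takes the spread between libraries into account, also called 0, with 22 positions at an unadjusted p below 0.05 and again no recurring site. Leaving out FG replicate 1 gave 6 calls, leaving out FG replicate 2 gave 1 and leaving out MG replicate 3 gave 3, all at positions with more than 30 reads.

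The mean level was higher in MG at 31 of the 61 sites listed in all 6 libraries and higher in FG at 30. The libraries of the sexes did not overlap at 2 of the 61 sites, against 9.67% of the 1303 positions. At the CHH site on scaffold 1124, position 85852 on the plus strand, the level was 0.375, 0.286 and 0.273 for the FG libraries and 0.25, 0.1 and 0.0714 for the MG libraries. At the CHH site on scaffold 173, position 476101 on the minus strand, it was 0.0625, 0.0588 and 0.0556 for the FG libraries and 0.188, 0.125 and 0.0769 for the MG libraries. The methylated reads behind these levels were 1 to 3 in each library.

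The 61 sites lay on 56 scaffolds and had levels between 0.0542 and 0.400, with a median of 0.206 for CpG and 0.171 for CHH. At 6 of them every library had at least 2 methylated reads, and at 5 every library had exactly 1. The highest mean level was at the CpG on scaffold 50, position 149477 on the minus strand. It was methylated in 2 of 7, 3 of 7 and 6 of 11 reads in FG and in 4 of 7, 3 of 7 and 1 of 7 reads in MG. SP replicate 2 listed it too, with 1 of 5 reads. Both sexes spanned a wide range there and overlapped.

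The second was a CHG on scaffold 1952, position 51525 on the minus strand, at a mean of 0.367. It had 2 of 5, 3 of 10 and 3 of 10 reads in FG and 3 of 10, 2 of 5 and 6 of 12 in MG and was listed in no SP library, so that every library lay between 0.3 and 0.5. The CHH on scaffold 1887, position 74762 on the minus strand, had 0.222, 0.286 and 0.188 for the FG libraries and 0.833, 0.364 and 0.211 for the MG libraries. MG replicate 1 stood apart there with 10 of 12 methylated reads, and the Fisher test gave p = 0.0828 and an adjusted p of 1. The CHH on scaffold 29, position 554936 on the plus strand, had 0.4, 0.125 and 0.143 for the FG libraries and 0.6, 0.6 and 0.1 for the MG libraries.

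The other 6 of the 10 highest were CpG. At scaffold 230, position 192587 on the plus strand, the level was 0.375, 0.25 and 0.438 for the FG libraries and 0.286, 0.313 and 0.333 for the MG libraries, so that the MG values lay inside the FG range. At scaffold 1238, position 135110, scaffold 2122, position 12100, and scaffold 2734, position 11631, the mean was 0.310, 0.309 and 0.305. At scaffold 508, position 19304, and scaffold 887, position 39782, it was 0.296 and 0.291. FG was above MG on average at scaffold 2734, with 0.389 ± 0.142 against 0.221 ± 0.0966 (SD, n = 3 each), and the ranges overlapped.

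**Figure D5:**
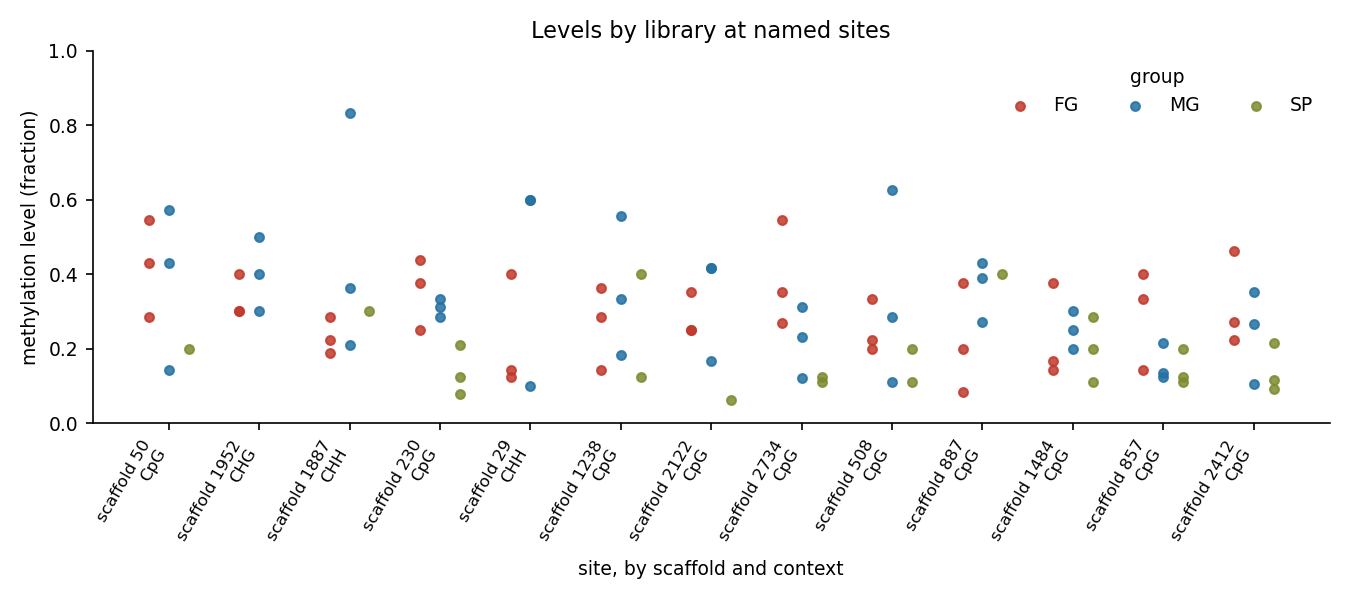
Methylation level (fraction) in each library that lists the site, for the 10 recurring sites with the highest mean level among those listed in all 6 gametophyte libraries and, at the right, 3 further sites listed in all 9 libraries, named by scaffold and context. FG and MG points overlap at all 13 sites, and the highest point is MG replicate 1 on scaffold 1887 at 0.833.

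The SP libraries took no part in the choice of sites, and their lists held the recurring sites more often than other positions. At least 1 SP library listed 889 of the 7479 recurring sites (11.9%), against 1.87% of all gametophyte positions covered by at most 30 reads. The share rose with the number of gametophyte libraries, from 1.83% of positions listed in 1 library to 2.21% in 2, 3.13% in 3, 10.7% in 4, 25.3% in 5 and 55.7% (34 of 61) in 6. In SP replicates 1, 2 and 3 the recurring sites were listed at 8.32%, 2.51% and 2.39%, against 0.949%, 0.415% and 0.483% of positions listed in a single gametophyte library. These are ratios of 8.77, 6.05 and 4.95, above 1 in 3 of 3 SP libraries. An exact sign-flip permutation over 3 libraries allows no p below 0.25.

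The high-level scaffolds carried much of the share in SP replicate 1. That library listed 379 of their 452 sites at a mean level of 0.968, and the other 2 SP libraries listed 0 of them. Without these scaffolds 510 of 7027 recurring sites were listed in SP (7.26%), and the ratios were 3.65, 6.44 and 5.27. By number of gametophyte libraries the share was then 2.86% in 3, 5.59% in 4, 25.3% in 5 and 55.7% in 6.

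CpG sites accounted for most of the sharing with SP off the high-level scaffolds. Of the 1223 CpG sites 25.5% were listed in at least 1 SP library, against 3.20% of CpG positions of a single gametophyte library. The ratio was 8.32, 12.5 and 9.58 in the 3 SP libraries. Of the CHG sites 4.26% were listed, against 1.53%. Of the CHH sites 3.17% were listed, against 1.36%, with ratios of 2.64, 1.60 and 2.10. Of the 188 sites that SP replicate 2 listed 155 were CpG, as were 140 of the 179 in SP replicate 3, but only 105 of the 243 in SP replicate 1. The full lists of these libraries were 59.1%, 59.7% and 27.0% CpG in the same order. Coverage in the gametophytes moved the other way. Off the high-level scaffolds, the share listed in SP was 9.75% for recurring sites with a mean of 5 to 8 reads and 5.74% for those with 21 to 30, against 1.55% and 3.95% of single-library positions in those classes.

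Where SP listed a recurring site off the high-level scaffolds, it did so mostly from 1 methylated read, at 196 of 243 sites in replicate 1, 141 of 188 in replicate 2 and 145 of 179 in replicate 3. The median level was 0.111, 0.167 and 0.143. All 3 SP libraries listed 12 recurring sites, and 4 of those were listed in all 6 gametophyte libraries as well.

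These 4 sites, listed in all 9 libraries, were CpG. At scaffold 230, position 192587, SP had 5 of 24, 1 of 13 and 1 of 8 methylated reads, a level of 0.137 ± 0.0665, against 0.354 ± 0.0955 in FG and 0.311 ± 0.0239 in MG (SD, n = 3 each). At scaffold 2412, position 26145 on the minus strand, the level was 0.140 ± 0.0653 in SP, 0.319 ± 0.126 in FG and 0.242 ± 0.126 in MG, where the lowest MG library lay inside the SP range. At scaffold 857, position 163721 on the minus strand, it was 0.145 ± 0.0478 in SP, 0.292 ± 0.133 in FG and 0.158 ± 0.0493 in MG, and SP and MG did not differ beyond their spread. At scaffold 1484, position 50669 on the minus strand, it was 0.199 ± 0.0873 in SP, 0.228 ± 0.128 in FG and 0.25 ± 0.05 in MG, and all 3 groups overlapped.

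Averaged over the 4 sites, the level was 0.334, 0.324 and 0.236 in FG, 0.267, 0.198 and 0.255 in MG and 0.136, 0.173 and 0.157 in SP, so that each gametophyte library was above each SP library. The gametophytes were 0.114 higher, with 0.269 ± 0.0522 (SD, n = 6) against 0.155 ± 0.0182 (SD, n = 3). At each of the 4 sites at least 1 SP library had exactly 1 methylated read, the least that a listed site can have. So had some gametophyte libraries at the sites on scaffolds 857 and 1484. The part of this floor in the difference was not tested. The value of 0.114 rests on few sites and depends on which ones qualify. It was 0.0545 over the 19 positions listed in all 9 libraries at any coverage. It was 0.0598 over the 2 sites left with at most 20 reads in each library, and without FG replicate 2, when 8 sites qualified, it was 0.0551.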

How the data were processed

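WGBS lists of 9 libraries (FG, MG and SP, 3 replicates each, assigned from their titles) were analysed. Per the study's methods, the authors aligned read pairs with Bismark to their scaffold assembly, removed duplicate pairs and called methylated cytosines. The deposited counts, which were not normalized, give methylated and unmethylated reads for a listed cytosine. Its level was deposited as a fraction, and the deposited p-value and corrected p-value come from a test not named in the sources used here. The corrected p-value was below 0.05 at every listed position.

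Here the lists were joined by scaffold, position and strand, and chloroplast and mitochondrial positions were left out. Levels were recomputed from the counts. Coordinates are those of the deposited lists, and no genome was used, so sites were not placed in genes or repeats. Fisher's exact test and, as an alternative, edgeR's quasi-likelihood methylation model (a term per library) were fitted to all positions listed in all 6 gametophyte libraries. Benjamini-Hochberg adjustment was over these positions. Both tests were tried on simulated counts, with a 4-fold change in MG at 200 of the 1303 positions. At an adjusted p below 0.05 each test recovered 69.5% of the changed positions. Of the 11 changed positions with at most 30 reads in every library, each recovered 54.5%. The sites and lists were chosen with earlier results of these data known. Sums and means over recurring sites are therefore given by library, without a p-value.

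Sites named are the 10 with the highest mean level among those listed in all 6 libraries, those listed in all 9, called sites (none), the 10 scaffolds with most sites, the 5 with most per kb and the 5 longest runs. Others named were chosen after their values were seen. Python 3.11.15, numpy 2.4.6, pandas 2.3.3, scipy 1.17.1, matplotlib 3.10.9, R 4.3.3 and edgeR 4.0.16 were used. Alternatives were other coverage limits, at least 2 methylated reads, other numbers of libraries, read-weighted levels, single contexts, a replicate block and leaving out each library. At a median coverage of 7 to 9 reads, 1 read decides whether most positions are listed, and reads after PCR are not independent molecules.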

Additional observations from a re-analysis of the deposited data

How the results depend on the processing

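The number of recurring sites depended on the rule. It was 24100 with no coverage maximum, 2148 with at least 10 reads, 563 with at least 2 methylated reads, 134644 with at least 3 libraries, 500 with at least 5 and 61 with all 6. Leaving out 1 gametophyte library and asking for 4 of the other 5 gave 2662 to 3292. The CpG, CHG and CHH shares were 22.7%, 16.6% and 60.7% with at most 20 reads, 6.38%, 21.9% and 71.8% with no maximum, 5.21%, 22.3% and 72.5% with at least 10 reads, and 28.1%, 13.9% and 58.1% with at least 2 methylated reads. They were 16.0%, 20.2% and 63.8% with at least 3 libraries, 37.4%, 13.2% and 49.4% with at least 5, and 54.1%, 8.20% and 37.7% with all 6. Without 1 library they were 18.7% to 21.3% CpG, 16.1% to 18.4% CHG and 61.7% to 64.3% CHH. MG minus FG in sites listed per library was 262 and turned to -27.0 with at least 2 methylated reads, to -1.65 per 10000 listed positions and to -1.41 per 10000 off the high-level scaffolds, an alternative chosen after seeing the data. It was 36.2 to 200.0 without 1 library. MG minus FG in mean level was -0.0155, was -0.0951 with at least 2 methylated reads and turned to 0.00488 over sites listed in all 6 libraries, and was -0.0571 to 0.0369 without 1 library, above 0 only without MG replicate 3. The gametophyte excess at positions listed in all 9 libraries was 0.0545 with no coverage maximum (19 positions), 0.0598 with at most 20 reads (2 sites) and 0.140 with at least 10 (1 site), and 0.0551 to 0.128 without 1 library. It could not be formed with at least 2 methylated reads, where no position was left. The mean log2 ratio of listing in SP was 2.68. It was 1.0 with at least 3 libraries, 4.49 with at least 5, 5.55 with all 6, 7.17 with at least 2 methylated reads, 1.55 for CHH alone and 1.05 for CHH off the high-level scaffolds, and 2.45 to 3.44 without 1 library. Calls between MG and FG without 1 library were 0 to 2 higher in MG and 0 to 5 higher in FG, and 0 under all other settings tried. The cause of these changes was not tested. Deviations from the group means of same-numbered FG and MG libraries correlated at 0.110, -0.0441 and 0.237 over 1303 positions. Unlike-numbered libraries correlated at -0.232 to 0.153, so that the value for replicate 3 was the highest of all pairs. These values do not settle whether replicate numbers pair the libraries. With the replicate number as a block the differences were again 262 sites and -0.0155 in level. The blocked edgeR and Cochran-Mantel-Haenszel tests called 0 positions, with 31 and 25 at an unadjusted p below 0.05. The 31 of blocked edgeR included 1 recurring site, on scaffold 1887 (unadjusted p = 0.0492, adjusted p = 0.998). The 25 included no recurring site. In the blocked edgeR fit 2 positions, neither of them a recurring site, had an adjusted p of 0.0410 with MG higher, against 1 without the block. They missed only the minimum fold, at 1.98 on scaffold 105 (position 162399) and 1.40 on scaffold 174 (position 270527).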
